A study of Mus musculus with 24 samples.

Results

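In a pulldown with a scrambled control mimic, 7 mRNAs of mouse fibroblasts were recovered far more than in the pulldown with a mimic of the microRNA miR-29b. They are Lrrc8a, Cpt1c, Lars2, Edf1, Mypop, Scand1 and Endov, 7 of the 13534 genes in the whole-cell table. They were picked by hand for this difference, with no stated threshold, so their recovery with the mimics is given as a description and without a test. All 7 passed the filter on low counts, which left 12915 genes, and all 7 were among the 11568 genes listed for the cell fractions.

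NIH3T3 cells, an established line of mouse embryonic fibroblasts, received a miR-29b mimic or a scrambled mimic at 10 nM. Both mimics carried 3-cyanovinylcarbazole, a nucleoside that light can crosslink to the strand opposite it. Medium was added after 24 h and cells were collected 8 h later. The whole-cell libraries form 4 groups of 4, namely miR-29b pulldown, scrambled pulldown, miR-29b input and scrambled input, and 8 more libraries hold 1 for each pairing of nuclear or cytoplasmic fraction, mimic, and pulldown or input. All cells were therefore transfected with a crosslinkable mimic, and no group without one was analysed here. File headers call replicate 4 of each group intact and replicates 1 to 3 lysed. The labels do not say that libraries of a group came from separate cultures, so their spread may be technical.

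MicroRNAs bind mRNAs within Argonaute proteins, mainly by pairing of the seed near their own start. A crosslinkable mimic carries the RNAs it pairs with into the pulldown, and a scrambled mimic, which has another base order, serves to show what is recovered without the microRNA's own sequence. MiR-29 microRNAs are known in fibroblasts for repressing collagens and other matrix genes. The sequences below, from RefSeq on GRCm38.p6, show the seed that the miR-29b mimic is meant to present, with bases 2 to 8 in capitals, shared by the 3 members of the mouse family. The sequence of the scrambled mimic was not used here.
mmu-miR-29b-3p: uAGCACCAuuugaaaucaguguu
mmu-miR-29a-3p: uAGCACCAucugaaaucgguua
mmu-miR-29c-3p: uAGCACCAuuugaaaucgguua
The miR-29b sequence is encoded at chr1:195037091-195037113 on the plus strand and at chr6:31063025-31063047 on the minus strand. MiR-29a lies at chr6:31062673-31062694 on the minus strand and miR-29c at chr1:195037600-195037621 on the plus strand. None of the 7 genes carries a mark of a predicted target site in the authors' deposited table (0 of 7), where 3.94% of the genes tested carry the mark for any site. None was among the authors' own positive hits (0 of 7), which were 4.39% of the genes tested.

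Whole-cell libraries held 7409157 to 55153996 counts over listed genes. The lowest total was that of replicate 1 of the scrambled pulldown, in which the listed genes made up 48.9% of the authors' library total. Fibroblast markers were listed for 9 of 11 genes, with summed levels of 2868 to 3490 CPM (counts scaled to library size with TMM factors) after miR-29b pulldown and 3395 to 4431 CPM after scrambled pulldown, against 4265 to 5439 CPM and 4279 to 5317 CPM in their inputs. Lum and Fap were not among the listed genes. Replicate 4 of the miR-29b input stood apart: Col1a1, a miR-29 target recovered with miR-29b, had 1233 CPM there, against 202, 229 and 224 CPM in the other miR-29b inputs and 2665 to 6452 CPM in the miR-29b pulldowns. Mcl1, another such target, had 314 CPM there, against 78.5, 84.4 and 80.7 CPM in the other 3. For 1103 of 1228 genes with more than 2-fold between replicates 1 and 2 of the miR-29b pulldown, the value of replicate 3 fell between those of the other two, or 89.8%. In the scrambled pulldown, replicate 4 fell between replicates 1 and 2 for 2179 of 2622 such genes, or 83.1%, and replicate 3 for 2083, or 79.4%. Values without replicate 3 and without replicate 4 are therefore given below.

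With the miR-29b mimic all 7 mRNAs were 4.31-fold to 10.5-fold lower in the pulldown than with the scrambled mimic, although 6 of the 7 had input levels whose ranges overlapped between mimics. In every one, all 4 miR-29b pulldowns lay below all 4 scrambled pulldowns, which 21.1% of all genes tested also did. This count is fixed by the choice of the genes. After each pulldown was set over its input, the log2 difference between mimics ranged from −3.45 in Lrrc8a to −2.64 in Endov, with a median of −2.73, against a median of −0.10 over all genes tested. This input-corrected difference, called mimic-specific below, was past an adjusted p of 0.05 and lower in 9.21% of genes and higher in 17%.

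**Figure D1:**
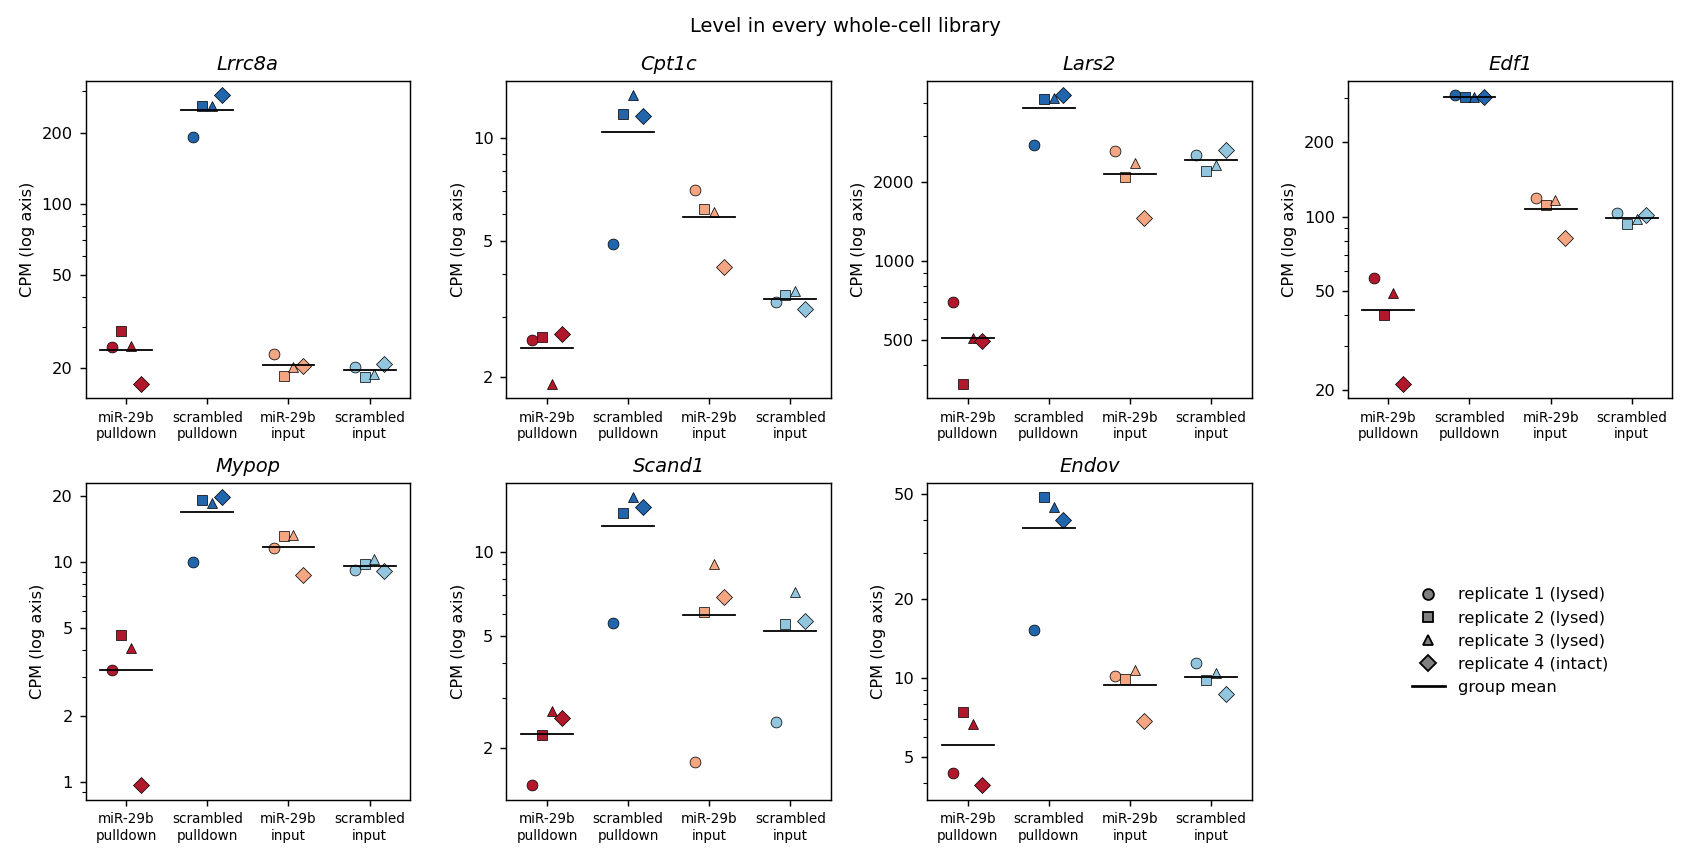
Level of each gene in the 16 whole-cell libraries, in CPM on a log axis, with 4 replicates per group as separate symbols and the group mean as a line. The miR-29b pulldowns of Lrrc8a, 17.2 to 28.7 CPM, lie an order of magnitude under the scrambled pulldowns, and replicate 1 of the scrambled pulldown is the lowest of its group in every gene but Edf1.

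Lrrc8a encodes the essential subunit of the volume-regulated anion channel, through which swollen cells release chloride and small organic molecules. The gene (ENSMUSG00000007476) spans chr2:30237769-30263790 on GRCm38. Its level was 24.6, 28.7, 24.9 and 17.2 CPM in the 4 miR-29b pulldowns. It was 191, 259, 259 and 288 CPM after scrambled pulldowns. The lowest scrambled pulldown was 6.67-fold above the highest miR-29b pulldown. The inputs had 20.6 ± 1.83 CPM with miR-29b and 19.6 ± 1.14 CPM with the scrambled mimic (SD, n = 4 each). Input level and miR-29b pulldown level therefore overlapped. Lrrc8a stood at 0.21 ± 0.16 (log2 ± SE) over input with miR-29b and at 3.67 ± 0.18, or 12.7-fold, over input with the scrambled mimic. The scrambled ratio ranked as the 51st highest of the 12915 genes. Its mimic-specific log2 difference of −3.45 ± 0.24 was the 36th lowest. Its fitted miR-29b ratio was above 0, and those of the other 6 genes were below 0.

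The other subunits of the channel were listed and tested for Lrrc8c, Lrrc8d and Lrrc8e. Of these 3, 0 passed the threshold in either direction in the mimic-specific comparison, by edgeR's quasi-likelihood test, with log2 differences of −0.29, −0.53 and 0.20 (adjusted p = 0.68, 0.747 and 0.608), and DESeq2 and unadjusted p-values under 0.05 gave 0 as well. Their levels were low, at 1.40 to 6.29 CPM on average after miR-29b pulldown and 1.93 to 4.75 CPM after scrambled pulldown.

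Cpt1c encodes the carnitine palmitoyltransferase 1 isoform best known from brain, which sits in the endoplasmic reticulum and has little of the enzyme activity of its relatives. The gene (ENSMUSG00000007783) spans chr7:44958483-44974880. It had 2.56, 2.62, 1.92 and 2.67 CPM in the miR-29b pulldowns and 4.91, 11.8, 13.3 and 11.6 CPM after scrambled pulldowns. Replicate 1 of the scrambled pulldown, with 36 counts, was the lowest of its group, whose highest library was 2.72-fold above it; the other 3 lay within 1.15-fold of one another. Inputs had 7.08, 6.23, 6.08 and 4.20 CPM with miR-29b and 3.32, 3.47, 3.56 and 3.18 CPM with the scrambled mimic. Here the inputs themselves did not overlap, which was so, in this direction, for 2.6% of genes. Cpt1c is the only one of the 7 whose input interval left out 0, at 0.80 log2 (95% interval 0.26 to 1.33) for miR-29b minus scrambled. Leaving out single libraries moved this between 0.69 and 0.90. The level over input was −1.27 ± 0.26 with miR-29b and 1.64 ± 0.25 with the scrambled mimic (log2 ± SE). The mimic-specific difference of −2.91 ± 0.36 thus includes the difference between the inputs, and between the pulldowns alone it was −2.11 ± 0.26.

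Of the other 6 tested genes of the carnitine shuttle, which carries fatty acids into mitochondria, 3 rose, 1 fell and 2 did not pass by edgeR's test in the mimic-specific comparison, with a median log2 difference of 0.91, against −0.10 over all genes. Slc25a20, the carnitine-acylcarnitine carrier, rose by 2.20 ± 0.45 (edgeR adjusted p = 0.00199). Cpt2, the inner-membrane transferase, rose by 0.87 ± 0.29 (edgeR adjusted p = 0.0359) and Crat, carnitine acetyltransferase, fell by 1.09 ± 0.30 (edgeR adjusted p = 0.0131). Cpt1a, the liver isoform and closest relative listed, was at −0.46 ± 0.35 (edgeR adjusted p = 0.371).

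Lars2 encodes the leucyl-tRNA synthetase of mitochondria. The gene (ENSMUSG00000035202) spans chr9:123366927-123462675. Its level was 698, 341, 510 and 494 CPM in the miR-29b pulldowns and 2766, 4160, 4175 and 4284 CPM after scrambled pulldowns. Replicate 1 again lay well under the other scrambled pulldowns, which lay within 1.03-fold of one another. The inputs held 2641, 2093, 2376 and 1459 CPM with miR-29b and 2540, 2201, 2319 and 2656 CPM with the scrambled mimic. Lars2 was the strongest of the 7 in its loss with miR-29b, at −2.07 ± 0.24 over input (log2 ± SE), or 4.19-fold lower, the 37th lowest of all genes by this ratio. With the scrambled mimic it had the smallest gain, at 0.66 ± 0.24, or 1.58-fold. Its mimic-specific difference was −2.73 ± 0.34.

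Of 18 other genes tested that serve aminoacyl-tRNA synthesis in mitochondria, 1 rose, 3 fell and 14 did not pass in the mimic-specific comparison (edgeR). Their median was −0.20. The 18 include Gatc and Qrsl1, which encode amidotransferase subunits and not synthetases. Lars2 stood far above these 18 in level, with mean inputs of 2142 CPM with miR-29b and 2429 CPM with the scrambled mimic. The highest of the 18 was Gatc, with 38.7 and 44.1 CPM. The highest synthetase gene among them was Iars2, with 20.8 and 19.9 CPM. Whether all reads counted for Lars2 came from its mRNA was not tested. Wars2, for tryptophan, rose by 1.78 ± 0.24 (edgeR adjusted p = 5.63e-05). Vars2, for valine, was at −1.40 ± 0.28 and Tars2, for threonine, at −0.75 ± 0.24 (edgeR adjusted p = 0.00179 and 0.0313). Lars, the leucyl-tRNA synthetase of the cytosol, was at −0.45 ± 0.18 (edgeR adjusted p = 0.0819).

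Edf1 encodes a small conserved protein that binds collided ribosomes and was first known as a transcriptional coactivator. The gene (ENSMUSG00000015092) spans chr2:25557824-25562084. It had 56.6, 40.0, 49.3 and 21.1 CPM in the miR-29b pulldowns and 308, 304, 305 and 303 CPM after scrambled pulldowns. The scrambled pulldowns lay within 1.02-fold of one another, replicate 1 included, while the miR-29b pulldowns spread over 2.68-fold with the intact replicate lowest. Inputs had 119, 111, 117 and 81.9 CPM with miR-29b and 104, 93.2, 97.7 and 102 CPM with the scrambled mimic. The miR-29b pulldowns lay below every input and the scrambled pulldowns above every input. Over input, Edf1 was at −1.36 ± 0.23 with miR-29b and at 1.62 ± 0.23 with the scrambled mimic (log2 ± SE), and the mimic-specific difference was −2.98 ± 0.33.

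Among 15 other tested genes of the ribosome collision pathway, 2 rose and 3 fell (edgeR), with a median of −0.15. Gtpbp2, a ribosome-rescue GTPase, rose by 3.21 ± 0.44 (edgeR adjusted p = 8.46e-05). Eif4e2, a cap-binding repressor of translation, rose by 1.29 ± 0.20 (edgeR adjusted p = 0.000264), and Pelo, which splits stalled ribosomes, fell by 1.17 ± 0.28 (edgeR adjusted p = 0.0055). Zfp598, the ubiquitin ligase that senses collisions, was at −0.15 ± 0.30 (edgeR adjusted p = 0.755).

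Mypop, also called p42POP, encodes a Myb-related repressor that binds profilin. The gene (ENSMUSG00000048481) spans chr7:18991240-19001766. Its level was 3.23, 4.66, 4.07 and 0.964 CPM in the miR-29b pulldowns and 10.1, 19.3, 18.6 and 19.8 CPM after scrambled pulldowns. The intact miR-29b pulldown, with 31 counts, was the lowest library. Inputs had 11.6, 13.1, 13.4 and 8.77 CPM with miR-29b and 9.28, 9.86, 10.4 and 9.13 CPM with the scrambled mimic. Replicate 1 of the scrambled pulldown lay within its inputs' range, and the other 3 lay above it. Over input Mypop was at −1.86 ± 0.35 with miR-29b, the 87th lowest of all genes, and at 0.82 ± 0.33 with the scrambled mimic (log2 ± SE). Its mimic-specific difference was −2.68 ± 0.48. Of 11 other Myb and SANT type genes tested, 1 rose and 1 fell (edgeR), namely Msantd3 by 0.83 ± 0.25 and Snapc4, a subunit of the small nuclear RNA activating complex, by 1.42 ± 0.30 (edgeR adjusted p = 0.0201 and 0.00236).

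Scand1 encodes a SCAN domain protein without the zinc fingers that accompany this dimerization domain in most of its relatives. The gene (ENSMUSG00000046229) is 859 bases long, at chr2:156311846-156312704. It had 1.47, 2.22, 2.71 and 2.55 CPM in the miR-29b pulldowns and 5.59, 13.7, 15.6 and 14.4 CPM after scrambled pulldowns. Inputs had 1.78, 6.08, 9.02 and 6.92 CPM with miR-29b and 2.48, 5.52, 7.20 and 5.68 CPM with the scrambled mimic. In all 4 groups replicate 1 was the lowest, so Scand1 had the widest errors of the 7. Over input it was at −1.40 ± 0.44 with miR-29b and at 1.25 ± 0.43 with the scrambled mimic (log2 ± SE), with a mimic-specific difference of −2.66 ± 0.61. Another gene, Cnbd2, overlaps Scand1 by 759 bp, and since the strand setting of the counting is not given in the sources used here, reads of the pair may have been mixed. Cnbd2 itself stayed at or under 2.74 CPM in all 16 libraries and was at −0.78 in the mimic-specific comparison (edgeR adjusted p = 0.563).

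Of 21 other SCAN domain genes tested, 6 rose and 0 fell in the mimic-specific comparison (edgeR; 2 were lower at an unadjusted p under 0.05, and 2 by DESeq2), and the median was 0.15. Zfp174 rose by 2.99 ± 0.50, Zkscan17 by 2.54 ± 0.38 and Zscan29 by 1.68 ± 0.29 (edgeR adjusted p = 0.000435, 0.000155 and 0.000512). These zinc finger genes had 23.7, 84.6 and 53.2 CPM on average in the miR-29b pulldown, against 1.69, 13.1 and 15.8 CPM after scrambled pulldown, the reverse of Scand1.

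Endov encodes endonuclease V, which cuts RNA at inosine. The gene (ENSMUSG00000039850) spans chr11:119491322-119511465. Its level was 4.37, 7.42, 6.68 and 3.92 CPM in the miR-29b pulldowns and 15.3, 48.9, 45.0 and 40.0 CPM after scrambled pulldowns. Replicate 1 of the scrambled pulldown was the lowest of its group, which spread over 3.2-fold, and was still 2.06-fold above the highest miR-29b pulldown. Inputs had 10.2, 9.95, 10.7 and 6.87 CPM with miR-29b and 11.5, 9.86, 10.5 and 8.73 CPM with the scrambled mimic. Over input Endov was at −0.75 ± 0.30 with miR-29b and at 1.89 ± 0.30 with the scrambled mimic (log2 ± SE), and its mimic-specific difference was −2.64 ± 0.42. Of 10 other genes that make or remove inosine, 1 rose and 1 fell (edgeR), namely Adat3, a tRNA deaminase subunit, by 1.15 ± 0.36 and Adarb1, the ADAR2 editing enzyme, by 1.08 ± 0.37 (edgeR adjusted p = 0.0251 and 0.0399).

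Set side by side, the 7 mRNAs differed in how the same input-corrected difference was made up. Lrrc8a had gain with the scrambled mimic and a miR-29b value near its input. Endov had mainly gain with the scrambled mimic, at 1.89 against −0.75 with miR-29b. Lars2 and Mypop had mainly loss with miR-29b, and Edf1, Cpt1c and Scand1 had both. The scrambled pulldown lay above its input without overlap in 5 of the 7, all but Mypop and Scand1, against 21.3% of all genes. The miR-29b pulldown lay below its input without overlap in 4 of the 7, namely Edf1, Cpt1c, Lars2 and Mypop, against 18% of all genes. Leaving out replicate 1 of every group brought the first count to 7 of 7 (32.5% of all genes) and the second to 5 of 7 (20.7%). Leaving out replicate 4 of every group gave 5 of 7 (28.2%) and 5 of 7 (37.4%). Both counts draw on the libraries that chose the genes.

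**Figure D2:**
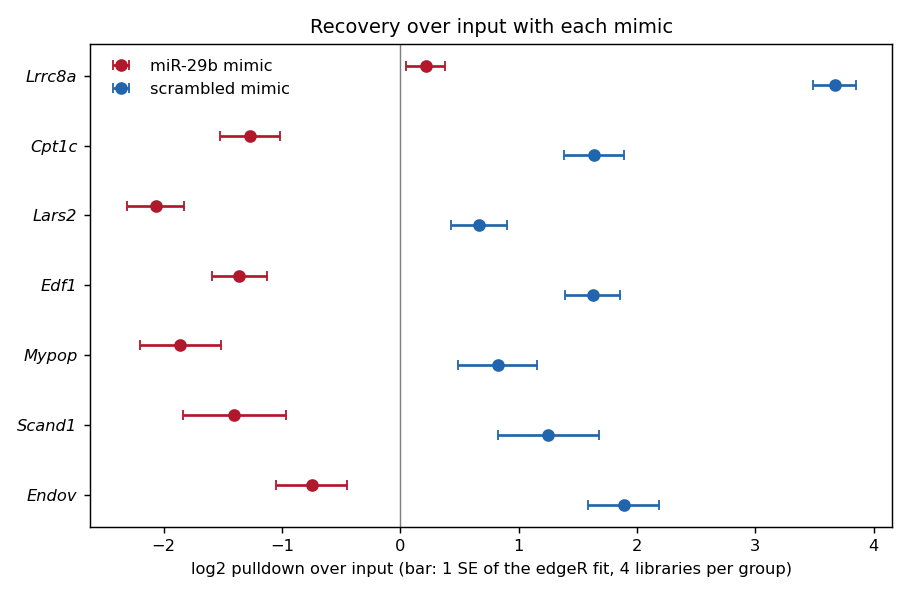
Log2 ratio of pulldown over input for each gene with the miR-29b mimic and with the scrambled mimic, as fitted over 4 libraries per group, with bars of 1 SE. With the scrambled mimic all 7 lie above 0, from 0.66 in Lars2 to 3.67 in Lrrc8a. With miR-29b they lie between −2.07 in Lars2 and 0.21 in Lrrc8a.

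The differences were of like size across subsets of the libraries that chose the genes, so their direction was largely fixed by that choice. With replicates 1 to 3, the lysed set, the mimic-specific log2 difference ran from −3.26 in Lrrc8a to −2.38 in Mypop. Without replicate 3 of every group it ran from −3.46 in Lrrc8a to −2.56 in Scand1. Over all 25 alternative settings each of the 7 stayed below −1. Lrrc8a ranged from −3.75 to −3.18, Mypop from −2.98 to −2.37 and Scand1 from −2.93 to −2.34.

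The 7 are not the only genes at this end of the scale. Endov was the 103rd lowest of the 12915 genes in the mimic-specific comparison, and 54 of those 103 were past the threshold. Requiring also at least 5 CPM on average in the scrambled pulldown, no overlap between the pulldowns and an official symbol left 11 genes, the 7 and another 4. Among these 4 were the transcripts AY036118 at −2.73, Gm17511 at −3.15 and Gm15564 at −3.29. Gm15564 had 15.6 ± 6.23 CPM after miR-29b pulldown and 165 ± 69.8 CPM after scrambled pulldown, against 51.4 ± 13.4 and 55.9 ± 10.5 CPM in their inputs (SD, n = 4 each). Its level went closely with that of Lars2 (r = 0.947), while AY036118 and Gm17511 had r = 0.453 and 0.425 with Lars2. The additional genes were looked up after the values were seen.

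**Figure D3:**
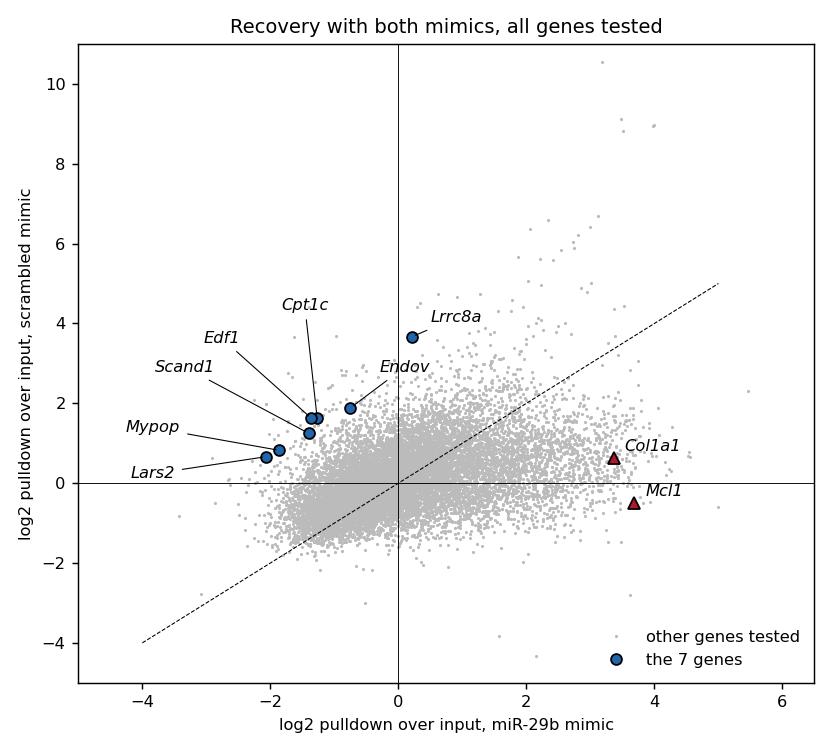
Log2 pulldown over input with the miR-29b mimic (x axis) against the same with the scrambled mimic (y axis) for the 12915 genes tested, with the 7 genes as blue circles and the miR-29 targets Col1a1 and Mcl1 as red triangles. The 7 lie above the dashed line of equal recovery, between 0.66 and 3.67 on the y axis. Col1a1 lies at 3.37 and Mcl1 at 3.69 on the x axis.

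Summed markers of epithelium and muscle, at low levels, were higher in the scrambled than in the miR-29b pulldowns, without overlap. Of all single genes tested, 21.1% were so. The muscle list had 2 of 5 genes listed, with Myod1, Myog and Ckm not among them, and summed to 0.728 to 1.09 CPM after miR-29b pulldown and 4.89 to 5.59 CPM after scrambled pulldown, against 1.58 to 2.84 CPM over the inputs. The epithelial list, with 2 of 5 genes listed and neither Epcam nor Cdh1, summed to 0.575 to 1.14 CPM after miR-29b pulldown and 2.01 to 3.95 CPM after scrambled pulldown. Over the inputs it summed to 0.864 to 1.67 CPM. The neural list, relevant because Cpt1c is best known from brain, had 2 of 6 genes listed and summed to 0.57 to 0.901 CPM after miR-29b pulldown and 0.712 to 3.55 CPM after scrambled pulldown, which overlap. Leukocyte markers had 1 of 4 genes listed, with 1.965 to 3.8 CPM after miR-29b pulldown and 1.09 to 3.27 CPM after scrambled pulldown, and endothelial markers 0 of 4. Their part in the result was not tested.

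Across the 16 libraries the levels of the 7 went together, with a Pearson r of log2 CPM between 0.508 and 0.894 over the 21 pairs and a median of 0.787. The groups of libraries and the choice of the genes share in these values. Among 11751 other genes with an official symbol, those most like Lrrc8a included Numa1 and Trrap (r = 0.971 and 0.967 over 16 libraries). Those most like Cpt1c included Rnf145 and Ggta1 (0.958 and 0.923). Lars2 was closest to Cep19, Capns1 and Pa2g4 (0.985, 0.974 and 0.968), Edf1 to Bcr, Arhgap10 and Pqbp1 (0.985, 0.978 and 0.976), Mypop to Kansl3, Rab1b and Vti1b (0.978, 0.97 and 0.97), and Endov to Trmt2a, Capn15 and Arhgef10l (0.969, 0.967 and 0.967). Scand1 had the loosest match, with Ccdc124, Vars and Pik3r2 (0.89, 0.876 and 0.862). The mimic-specific log2 values of these closest genes ran from −2.32 in Bcr to −0.65 in Vars. That these are smaller than in the 7 is largely set by the choice of the 7 for a large difference.

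No tested gene next to these genes on the chromosome was called lower in the mimic-specific comparison. Such neighbours were tested for 5 of the 7, and no neighbour of Lrrc8a or Lars2 within 10 kb was tested. Apart from Cnbd2, which overlaps Scand1, those tested lay 1030 to 3903 bp away. Mamdc4 beside Edf1 was at 0.13 in the mimic-specific comparison, Phf20 beside Scand1 at −0.31, Rnf213 beside Endov at −0.43 and Prmt1 beside Cpt1c at −0.75 (edgeR adjusted p = 0.921, 0.164, 0.75 and 0.166). Irf2bp1, a corepressor gene 2291 bp from Mypop, rose by 1.03 (edgeR adjusted p = 0.00925). The long noncoding RNA Gm46137 lies within Lars2 over 8819 bp and was not among the listed genes, so any reads of it cannot be told apart from those of Lars2 here.

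In the inputs, which show the mRNA before recovery, levels overlapped between mimics in 6 of the 7. The miR-29b minus scrambled difference was 0.07 for Lrrc8a (95% interval −0.28 to 0.42), 0.11 for Edf1 (−0.37 to 0.59) and −0.18 for Lars2 (−0.68 to 0.32). It was 0.28 for Mypop (−0.42 to 0.98), 0.19 for Scand1 (−0.71 to 1.09) and −0.10 for Endov (−0.73 to 0.52). All 6 intervals include 0, and the widest was that of Scand1. Over all genes, 7 were called higher with miR-29b (0.0542%) and 0 lower by edgeR, where 206 were lower at an unadjusted p under 0.05 and 14 by DESeq2. With the replicate number as a block, edgeR called 10 higher and 1 lower. None of the 7 genes described here was called in either fit, and with the block the interval of Cpt1c was again the one of the 7 that left out 0 (0.24 to 1.35).

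The inputs also allow a comparison that did not enter the choice of the genes, intact against lysed, with mimic as a covariate. Only Endov of the 7 passed, lower in the 2 intact inputs than in the 6 lysed inputs with a log2 difference of −0.40 ± 0.12 (edgeR adjusted p = 0.017), with levels of 6.87 and 8.73 CPM in intact inputs and 9.86 to 11.5 CPM in lysed inputs. Of all 12662 genes tested, 55.9% passed, and 27.8% passed as lower. Cpt1c was at −0.35 ± 0.15 and Mypop at −0.29 ± 0.13 (edgeR adjusted p = 0.0849 and 0.0826). Lars2, Edf1, Lrrc8a and Scand1 were at −0.20, −0.18, 0.09 and 0.25 (edgeR adjusted p = 0.37, 0.211, 0.481 and 0.702). These values rest on replicate 4 of the miR-29b input, the library with raised Col1a1 and Mcl1. Without it Endov was at −0.25, and Edf1 and Lars2 were above 0, at 0.08 and 0.20. Without replicate 4 of the scrambled input instead, Edf1, Cpt1c, Lars2, Mypop and Endov were at −0.48, −0.60, −0.68, −0.51 and −0.56. Either way 1 intact library is left, which shows no spread of its own, so only sizes are given. The part of that library's other RNA in these values was not tested, and replicate number and procedure cannot be told apart. Same-numbered inputs deviated together, so the 2 intact inputs are not independent of each other. With the inputs of 1 number summed over mimics, 1 intact against 3 lysed, 3 of the 7 passed as lower, against 60.4% of all genes passing in either direction, namely Endov at −0.46 ± 0.10, Mypop at −0.33 ± 0.10 and Edf1 at −0.24 ± 0.07 (edgeR adjusted p = 0.007, 0.0286 and 0.0247).

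**Figure D4:**
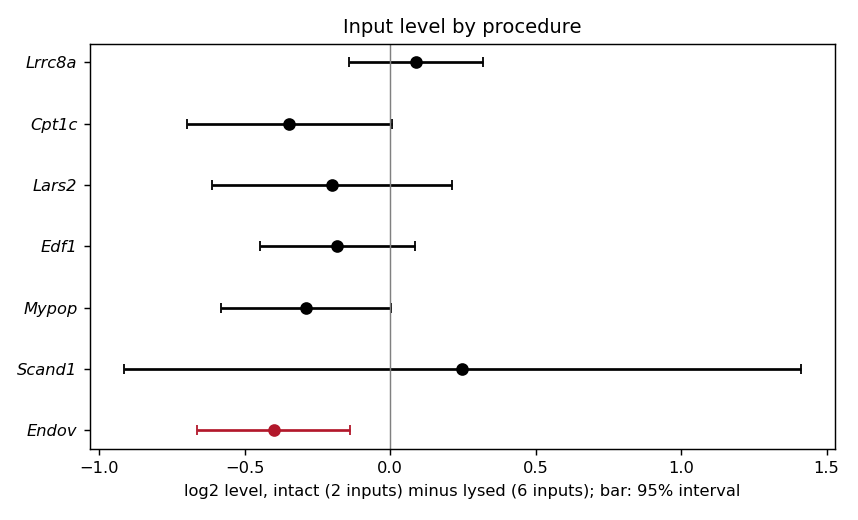
Log2 difference in input level between the 2 intact and the 6 lysed libraries for each gene, with the 95% interval of the edgeR fit. The interval of Endov, in red, lies below 0, and those of the other 6 include 0.

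The cell fractions had 1 library each and therefore no test, and intervals below cover counting error only. Whether their pulldown values also entered the choice of the genes is not stated, so counts of the 7 in the fractions are a description. In the inputs Endov and Cpt1c were relatively nuclear. With the miR-29b mimic, the log2 ratio of nuclear over cytoplasmic CPM was 1.48 ± 0.33 for Cpt1c and 1.00 ± 0.33 for Endov (95% counting interval), and with the scrambled mimic 1.62 ± 0.34 and 0.93 ± 0.32. At least 2-fold higher in the nucleus were 25.1% and 23.8% of all genes. At least 2-fold lower in the nucleus were 3 of the 7, namely Edf1, Lars2 and Scand1, with either mimic, against 25.9% of all genes with miR-29b and 24% with the scrambled mimic. Edf1 was at −1.81 and −1.75, Scand1 at −1.88 and −1.62, Mypop at −0.94 and −0.60 and Lrrc8a at −0.66 and −0.61 with the miR-29b and the scrambled mimic. Lars2 differed most between mimics, at −2.61 with miR-29b and −1.14 with the scrambled mimic, since its nuclear input held 291 CPM with miR-29b and 690 CPM with the scrambled mimic.

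In the cytoplasm Lrrc8a had 9.32 CPM in the miR-29b pulldown (78 counts) and 260 CPM after scrambled pulldown (1010 counts), against 18.1 and 20.6 CPM in their inputs. Its mimic-specific difference of −4.56 ± 0.40 was the lowest of all 11568 genes. Endov had 2.75 CPM after miR-29b pulldown and 21.9 CPM after scrambled pulldown, and Lars2 had 879 and 3797 CPM. Edf1 had 88.5 CPM after miR-29b pulldown and 423 CPM after scrambled pulldown, Mypop 3.11 and 10.1 CPM and Cpt1c 4.78 and 7.74 CPM. In these 6 genes the scrambled pulldown was thus the higher. At least 2-fold lower in the mimic-specific comparison were 5 of the 7, against 16.5% of all genes: Lrrc8a, Endov at −2.85 ± 0.76, Lars2 at −2.34 ± 0.05, Edf1 at −2.11 ± 0.16 and Mypop at −1.72 ± 0.79. Cpt1c was at −0.96 ± 0.79. Scand1 went the other way, with 19.96 CPM in the miR-29b pulldown (167 counts) and 11.1 CPM after scrambled pulldown (43 counts), against 9.35 and 11.1 CPM in their inputs, or 1.06 ± 0.57. Set over their cytoplasmic inputs, 3 of the 7 were at least 2-fold lower with miR-29b, namely Lars2, Mypop and Endov, against 9.41% of all genes, and Scand1 was at least 2-fold higher, against 13.7%. With the scrambled mimic 4 of the 7, Lrrc8a, Edf1, Lars2 and Endov, were at least 2-fold higher than their cytoplasmic input, against 10.4% of all genes, and 0 of the 7 were as much lower, against 10.8%. Over its cytoplasmic input, Edf1 was at 0.08 ± 0.13 with miR-29b, while in whole cells it was at −1.36.

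The cytoplasmic pulldowns also held nuclear RNA. Malat1, which is retained in nuclei, had 5734 CPM in the cytoplasmic miR-29b pulldown and 8728 CPM in the cytoplasmic scrambled pulldown, against 259 and 240 CPM in their inputs. Neat1, another nuclear RNA, had 427 and 730 CPM in these pulldowns, against 16.1 and 24.2 CPM in the inputs. Listed genes made up 48.7% of the authors' total in the cytoplasmic scrambled pulldown and 78.4% in the miR-29b one. The part of either in the members' values was not tested.

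In the nucleus the 7 genes lay near their inputs with both mimics, as did most genes. At least 2-fold lower than input with miR-29b were 0 of the 7 and 0.96% of all genes, and at least 2-fold higher 0 of the 7 and 2.35%. With the scrambled mimic the counts were 0 of the 7 and 0.588% lower, and 0 of the 7 and 2.96% higher. Lrrc8a had 12.2 CPM after miR-29b pulldown and 16.8 CPM after scrambled pulldown, against 11.3 and 13.4 CPM in their inputs. Edf1 had 21.6 and 28.9 CPM, against 23.5 and 27.1 CPM. At least 2-fold lower in the mimic-specific comparison were 0 of the 7 and 2.31% of all genes, and at least 2-fold higher were 0 of the 7 and 1.83% of all genes. In 6 of the 7, log2 differences lay between −0.35 in Cpt1c and 0.28 in Scand1, and each interval for counting error included 0. Lars2 was at 0.70 ± 0.08, with 462 CPM after miR-29b pulldown and 672 CPM after scrambled pulldown. Over its inputs of 291 and 690 CPM it was at 0.66 with miR-29b and at −0.04 with the scrambled mimic.

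**Figure D5:**
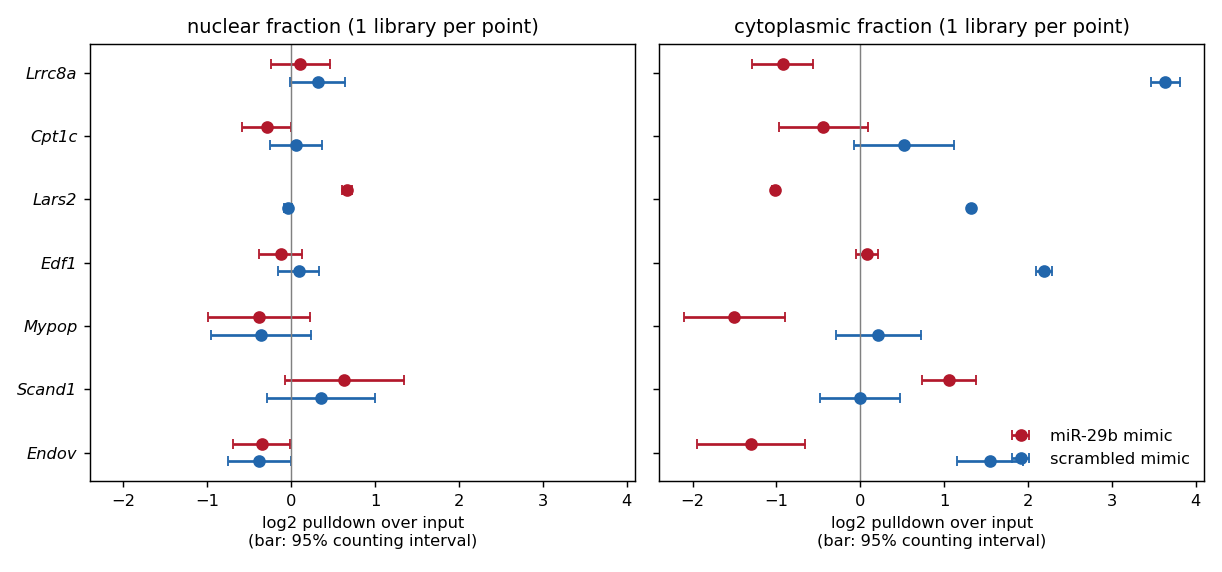
Log2 pulldown over input for each gene in the nuclear fraction (left) and the cytoplasmic fraction (right), with the miR-29b and the scrambled mimic, from 1 library per group, with bars of the 95% counting interval. In the cytoplasm Lrrc8a lies at −0.93 with miR-29b and 3.64 with the scrambled mimic, and Scand1 has the opposite order. In the nucleus all points lie between −1 and 1.

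The authors' deposited table also gives a score per gene and replicate, named PE, whose formula is not stated in the file headers. Its mean over the lysed replicates was negative in 6 of the 7, with the lowest values in Lars2 at −0.607 (SD 0.385) and Mypop at −0.566 (SD 0.446). Replicate 1 drew both means down. Lars2 had −1.05 there, against −0.371 and −0.399 in replicates 2 and 3, and Mypop −1.08 against −0.258 and −0.363. Lrrc8a had 0.046, and the median of all genes tested was 0.083, also in the authors' deposited table. In the same deposited table Scand1 had a cytoplasmic score of 0.74 and Mypop one of −1.27.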

How the data were processed

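RNA from input and pulldown of NIH3T3 cells was sequenced in 24 libraries, 16 from whole cells and 8 from fractions. Per the labels, each library took 5 ng of RNA (6 ng in the miR-29b input's replicate 4), primed by random hexamers and oligo-dT. STAR 2.3.0 and mm10 were used, per the submitters' processing notes. For the counting tool, its annotation version and its strand setting, the entry is "not given in the sources used here". Raw counts per gene and library stand in the deposited tables. The authors also deposited CPM values and a score named PE, whose formula is not stated, and marks of predicted sites, per the file headers.

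From these, counts were tested with edgeR 4.0.16 (R 4.3.3; filterByExpr, TMM, quasi-likelihood test, Benjamini-Hochberg adjustment, threshold 0.05) in 1 model of group means over 16 libraries, which shares 1 estimate of the spread. Of 14052 lines, 518 repeated a gene with the same counts and were dropped. Inputs were also fitted alone, with mimic as a covariate, for intact against lysed. CPM values in the text are counts scaled by TMM factors. The prior count was 2 for log2 CPM and 5 in the fractions, which had 1 library per group. The 95% intervals of the fraction log2 ratios are a normal approximation from the counts and cover counting error only. The fraction table had 11 repeat lines dropped; the second fraction file differed by 0 bytes and was not used. Listed counts were 7409157 to 55153996 per whole-cell library and 5320421 to 20142591 per fraction library. Gene positions came from RefSeq on GRCm38.p6, which is the mm10 assembly.

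The members and gene lists were chosen with earlier results of these data known. The genes named are the 7, the 3 most like each by Pearson r, up to 3 called genes of each list, neighbours within 10 kb, Col1a1 and Mcl1; others were named after their values were seen, and a few genes that these rules name are not reported here. Alternatives were RLE, upper-quartile and the authors' library totals, DESeq2 1.42.0, no filter or 2 CPM in 4 libraries, a replicate block, subsets of replicates and leaving out each library; the subsets and the block for pulldown over input, the counts of groups that do not overlap without replicate 1 or 4, and the inputs of 1 number summed were added after seeing the data. In simulated counts with 4-fold changes in 200 genes, 76.5% were recovered in the mimic-specific comparison (12768 genes) and 94% in intact against lysed (12838 genes). False calls were 7 and 4. The changed genes were drawn from well-counted ones, and all genes were given 1 common spread. All simulated libraries were independent, unlike the same-numbered libraries here, so recovery in the real data may be lower. The labels number the libraries of each whole-cell group alike. Same-numbered libraries correlated in their deviations from the group means. All 4 correlations were over 0.1 between the inputs (0.51 to 0.72) and between either input and the miR-29b pulldown (0.33 to 0.70). A fit with the replicate number as a block was therefore run as an alternative. The ratios over input, SE and input intervals printed come from the fit without the block, unless the block is named, and so ignore this pairing. With the scrambled pulldown the correlations were −0.10 to 0.37, and some were under 0.1 with every other group. The numbers were therefore not taken as pairs in the mimic-specific comparison, which was fitted without the block.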

Additional observations from a re-analysis of the deposited data

Results flagged for a closer look

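In 3 of the 28 combinations of gene and whole-cell group, 1 of the 4 libraries stood far from the other 3 by Dixon's ratio at the 95% level, where chance gives about 1 in 20. Lars2 in replicate 1 of the scrambled pulldown had 2766 CPM, under the other 3 at 4160 to 4284 CPM. Mypop in the same library had 10.1 CPM, under the other 3 at 18.6 to 19.8 CPM. This library had the fewest listed counts, and the part of its depth in these values was not tested; without it the mimic-specific difference was −2.81 in Lars2 and −2.80 in Mypop, against −2.73 and −2.68 with it. Cpt1c in replicate 3 of the miR-29b pulldown had 1.92 CPM from 80 counts, under the other 3 at 2.56 to 2.67 CPM.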

How the results depend on the processing

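The mimic-specific differences of the 7 genes, which were chosen for this difference in the same libraries, kept their direction under all 25 alternatives. Of the values for single genes and the medians over all genes, 986 stayed the same within set limits. In the same set 3 moved, 2 reversed, 6 became stronger and 1 became weaker. Of the counts and the medians of the 7, 212 stayed the same and 22 moved. The limits were a multiple of the main SE, the counting interval, or a set shift or fold. For single genes in intact against lysed they were direction and side of the threshold. The number of genes called lower, 1190, was 2400 with upper-quartile factors (1662 higher; median of all genes −0.39), 283 with the authors' library totals (2466 higher; median 0.21), 2457 with replicates 1 to 3, and 233 with replicates 1, 2 and 4 (1004 higher); leaving out single libraries gave 783 (without replicate 3 of the scrambled input) to 1449. With the replicate block it was 1931, the median of the 7 was −2.76 and 11 genes were called between inputs. In the gene families the block lost no call and added Slc22a5, Lars, N4bp2, Ascc2, Mybl2, Zscan21, Zfp110 and Adar. The SCAN domain genes then had 7 higher and 1 lower. The members' blocked differences lay between −3.46 in Lrrc8a and −2.53 in Scand1. Between inputs, 7 genes were called, but 1 with the authors' totals, 46 with DESeq2, 177 with replicates 1 to 3, 0 with replicates 1, 2 and 4 (edgeR; 205 higher and 44 lower at an unadjusted p under 0.05), and 1 to 12 when leaving out single libraries. Between intact and lysed inputs, leaving out single libraries called 0 to 5 of the 7. Without replicate 4 of the miR-29b input, Edf1 reversed to 0.076 and Lars2 to 0.20 (edgeR adjusted p = 0.419 and 0.178). With the scrambled input's replicate 4 left out instead, Edf1, Cpt1c, Lars2 and Mypop passed at −0.48, −0.60, −0.68 and −0.51 (edgeR adjusted p = 0.000397, 0.00891, 0.000888 and 0.00423). With the inputs of 1 number summed, chosen after seeing the data, 3 of the 7 were called. The cause was not tested. In the cytoplasm, Lars2 moved to −2.47 with listed totals in place of TMM. Depth limits Cpt1c, Mypop, Scand1 and Endov most, which had as few as 36, 31, 31 and 92 counts in a whole-cell library.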
